A study of Mus musculus with 175 samples.

Results

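The 7 genes described here encode 3 ID proteins (Id1, Id2 and Id3), the E protein Tcf4 and 3 zinc finger factors of the Ikaros family (Ikzf1, Ikzf2 and Ikzf5). They were taken by symbol from the gene annotation that accompanies the counts, where all 7 were found among 49585 mouse features, of which 22262 had a read in the cells used. Their raw counts came from single cells of E14.5 fetal livers, sequenced by a modified Smart-Seq2 protocol, which copies full-length cDNA without molecular identifiers. The mice were C57BL/6 crossed with ICR and carried, on 1 Runx1 allele, reporters for the P1 promoter (GFP) and the P2 promoter (human CD4). The extract protocol names this reporter P1-GFP::P2-hCD4/+, while the genotype label reads P2-GFP::P2-hCD4/+, and all 4 populations shared it. Megakaryocyte erythroid progenitors (MEPs, CD34-) and common myeloid progenitors (CMPs, CD34+) were sorted as CD41- CD150+ cells from the CD16/32low part of the Lin- cKit+ Sca1- fraction and each split by the human CD4 reporter into P2- and P2+ cells.

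The filters of the study left 56 P2- and 47 P2+ MEPs and 27 P2- and 42 P2+ CMPs, with 295064 to 1540631 reads on mouse genes per cell. The livers of 2 litters were pooled, so that each population is 1 sample, its cells are not replicates and no difference between populations could be tested. Levels are therefore given as CPM, the number of reads of a gene per 1000000 reads on mouse genes, pooled over the cells of a population, with an exact Poisson 95% interval, and ratios as log2 of pooled CPM with an exact conditional binomial 95% interval. These intervals cover counting error only and leave out the spread between cells and between litters. A ratio is called higher or lower when it is 2-fold or more. The genes behind the sort were read first, and Cd34 stood at 0.0327, 13.05, 274.3 and 541 CPM and Runx1 at 23.4, 56.98, 71.5 and 156 CPM for P2- and P2+ MEPs and then P2- and P2+ CMPs, an order that is kept below. Kit lay between 259.3 and 369.4 CPM in all 4, and Slamf1, which encodes CD150, at 8.23, 97.2, 37.2 and 69.3 CPM, with a read in 7 of the 56 P2- MEPs at equal depth. Of the P2- CMPs, 1 had a cell subtype label that named MEPs and was kept as a CMP, and 2 of the 172 cells had reads of both Xist and Y chromosome genes.

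ID proteins have a helix-loop-helix but no region that contacts DNA. They bind E proteins, which are basic helix-loop-helix factors, and keep them from pairing with partners such as TAL1 and from binding their sites. ID genes are known targets of BMP signalling through SMAD1 and SMAD5. Ikaros family proteins bind DNA with N-terminal zinc fingers, pair with each other through C-terminal zinc fingers and recruit the NuRD chromatin remodelling and deacetylase complex. Ikaros (Ikzf1) is known as a regulator of lymphoid, erythroid and megakaryocytic development, Helios (Ikzf2) as a close relative found in stem cells and T cells, and Pegasus (Ikzf5) as a more distant member that recognises another DNA sequence.

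Because the members of each family resemble each other, the most conserved coding stretch within an exon is shown for each, since it decides whether reads of one could have been counted for another. For the ID genes this is a stretch of 120 coding bases in the helix-loop-helix part, with capitals where Id1, Id2 and Id3 are identical, which is so at 77 of 120 positions (64.2%). It lies at chr2:152736518-152736637 on the plus strand for Id1, at chr12:25095783-25095902 on the minus strand for Id2 and at chr4:136144002-136144121 on the plus strand for Id3 (GRCm38, in the first exon of the longest coding transcript of each).
Id1: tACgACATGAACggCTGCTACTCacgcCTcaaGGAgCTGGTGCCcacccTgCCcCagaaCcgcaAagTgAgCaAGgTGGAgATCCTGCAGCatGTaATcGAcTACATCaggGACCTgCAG
Id2: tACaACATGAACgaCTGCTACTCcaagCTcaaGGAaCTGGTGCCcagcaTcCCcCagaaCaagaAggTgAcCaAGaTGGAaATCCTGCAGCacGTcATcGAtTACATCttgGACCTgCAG
Id3: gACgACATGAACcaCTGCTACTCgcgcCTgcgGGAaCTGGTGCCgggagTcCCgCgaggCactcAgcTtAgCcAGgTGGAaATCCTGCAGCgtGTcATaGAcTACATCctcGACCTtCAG
Id1 and Id2 were identical at 81.7% of these bases, Id1 and Id3 at 70.8% and Id2 and Id3 at 71.7%, and no run of identical bases was longer than 15.

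The matching stretch of the Ikaros genes lies in the C-terminal zinc fingers, with capitals where Ikzf1, Ikzf2 and Ikzf5 are identical, at 66 of 120 positions (55%). It was found at chr11:11769417-11769536 on the plus strand for Ikzf1, chr1:69538807-69538926 on the minus strand for Ikzf2 and chr7:131391676-131391795 on the minus strand for Ikzf5, in the last exon of the longest coding transcript of each (GRCm38).
Ikzf1: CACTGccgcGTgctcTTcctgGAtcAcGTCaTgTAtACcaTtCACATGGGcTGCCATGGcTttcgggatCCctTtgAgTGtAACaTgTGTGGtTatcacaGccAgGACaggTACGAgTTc
Ikzf2: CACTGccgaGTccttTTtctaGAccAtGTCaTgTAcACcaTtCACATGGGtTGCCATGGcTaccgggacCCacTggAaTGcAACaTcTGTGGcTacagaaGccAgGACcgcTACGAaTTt
Ikzf5: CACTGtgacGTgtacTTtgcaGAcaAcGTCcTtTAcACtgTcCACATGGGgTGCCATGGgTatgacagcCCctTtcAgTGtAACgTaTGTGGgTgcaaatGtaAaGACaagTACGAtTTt
Here Ikzf1 and Ikzf2 were identical at 77.5% of bases, and the longest identical run was 14. Of all stretches of 70 bases in the transcripts of Id1, Id2, Id3 and Ikzf1, 0 were found in any other gene. For Ikzf5 the neighbours were the limit: 84.5% of its exon bases overlap Gm44624 or Pstk in GENCODE M21, and reads that overlap 2 genes were left out as ambiguous. Whether these overlaps were also in GENCODE M12, used for counting, was not checked. Its counts may come from the remaining bases only, so that its level is not taken as comparable with that of other genes.

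The whole genes lie at chr2:152736251-152737410 (Id1, plus strand), chr12:25093799-25097140 (Id2, minus strand), chr4:136143497-136145755 (Id3, plus strand), chr18:69343356-69689079 (Tcf4, plus strand), chr11:11685003-11772926 (Ikzf1, plus strand), chr1:69531214-69687245 (Ikzf2, minus strand) and chr7:131388652-131410521 (Ikzf5, minus strand). Reads were counted on exons, coding and untranslated alike.

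Id1 was the most widely detected ID gene, and its level was higher in CMPs than in MEPs and higher in P2+ than in P2- cells. Its pooled level was 5.98 CPM (95% interval 5.14 to 6.91) in P2- MEPs, 19.98 CPM (18.5 to 21.6) in P2+ MEPs, 36.4 CPM (33.7 to 39.3) in P2- CMPs and 83.6 CPM (80.6 to 86.6) in P2+ CMPs. No 2 neighbours in this order had overlapping intervals. On the log2 scale Id1 was higher by 1.74 (1.501 to 1.99) in P2+ than in P2- MEPs and by 1.20 (1.08 to 1.32) in P2+ than in P2- CMPs. The latter fell to 0.79, within 2-fold, without the cells with reads of the endothelial genes Cdh5 or Kdr, 2 in each CMP population. Between the compartments it was higher by 2.61 (2.37 to 2.85) in P2- CMPs than in P2- MEPs and by 2.06 (1.94 to 2.19) in P2+ CMPs than in P2+ MEPs.

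The share of cells with Id1 moved in the same order. At an equal depth of 100000 reads per cell, 10 of 56 P2- MEPs had an Id1 read (17.9%, exact Clopper-Pearson 95% interval 8.91 to 30.4), as had 16 of 47 P2+ MEPs (34.04%, 20.9 to 49.3). In CMPs these were 12 of 27 P2- cells (44.4%, 25.5 to 64.7) and 25 of 42 P2+ cells (59.5%, 43.3 to 74.4). The intervals of neighbouring populations overlapped, while those of P2- MEPs and P2+ CMPs did not. Share intervals, here and below, cover only the drawing of cells from the pool of a population and leave out the spread between litters. Neither overlap nor a gap between them therefore tests a difference between populations. Without thinning, the cells ran from 0 to 79.5 CPM in P2- MEPs, from 0 to 119 CPM in P2+ MEPs, from 0 to 146 CPM in P2- CMPs and from 0 to 437 CPM in P2+ CMPs. The median cell was at 0 in the first 3 populations and at 34.4 CPM in P2+ CMPs. The 5 cells with the most Id1 reads held 66.1%, 58.3%, 68.6% and 60.6% of them. Among the cells with a read the median level was 16.8, 40.5, 72.3 and 72.5 CPM, so that P2- and P2+ CMPs with Id1 had about the same median level.

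Id2 was found mainly in P2+ CMPs. Its pooled level was 0.555 CPM in P2- MEPs (17 reads), 4.59 CPM in P2+ MEPs (145 reads), 2.84 CPM in P2- CMPs (52 reads) and 27.1 CPM (25.4 to 28.8) in P2+ CMPs (984 reads). All Id2 reads of P2- MEPs came from 1 cell, and 74.5% of those of P2+ MEPs and 82.7% of those of P2- CMPs came from 1 cell each. In P2+ CMPs 11 of 42 cells (26.2%, 13.9 to 42.04) had a read, between 21.3 and 210.9 CPM, and the highest cell held 20.5% of the reads. A read was found in 1 of 56 P2- MEPs, 2 of 47 P2+ MEPs and 2 of 27 P2- CMPs. The intervals of P2+ MEPs and P2- CMPs, which reach 14.5% and 24.3%, overlapped that of P2+ CMPs. The log2 ratio was 3.25 (2.85 to 3.69) for P2+ over P2- CMPs and 2.56 (2.31 to 2.82) for P2+ CMPs over P2+ MEPs. Without the cell of highest CPM in each population these became 5.50 and 4.26. The reads left in P2- CMPs and in P2+ MEPs then came from 1 cell each. In the other comparisons the ratios, 3.05 for P2+ over P2- MEPs and 2.35 for P2- CMPs over P2- MEPs, compared 1 or 2 cells with 1 or 2 cells.

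Id3 was nearly limited to P2+ CMPs. It had 10 reads in P2- MEPs (0.327 CPM, 2 of 56 cells), 0 reads in P2+ MEPs, 0 reads in P2- CMPs and 2111 reads in P2+ CMPs (58.1 CPM, 55.6 to 60.6). A count of 0 allows up to 3 reads, or 0.0950 CPM in P2+ MEPs and 0.164 CPM in P2- CMPs. Against these floors, set over the whole population, Id3 was at least 8.47 higher on the log2 scale in P2+ than in P2- CMPs and at least 9.26 higher in P2+ CMPs than in P2+ MEPs. In P2+ MEPs it was at most -1.78 relative to P2- MEPs, and at most -0.47 when the highest P2- MEP was left out. The reads lay in 9 of 42 P2+ CMPs (21.4%, 10.3 to 36.8), and the Clopper-Pearson interval of 0 of 47 P2+ MEPs reached 7.55% and that of 0 of 27 P2- CMPs 12.8%, so the intervals of P2- and P2+ CMPs overlapped.

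The 9 P2+ CMPs with Id3 stood at 51.6, 60.5, 154, 204, 354.4, 370, 385, 396 and 446 CPM. The 5 cells with the most reads held 78.3% of the Id3 reads, and 33 cells of the same population had no read. At equal depth, Id1 was found in 8 of these 9 cells and in 17 of the other 33, and Id2 in 6 of the 9 and in 5 of the 33. Spearman's rho over the 42 P2+ CMPs, which share a pool and a sort, was 0.53 between Id1 and Id3, 0.52 between Id2 and Id3 and 0.16 between Id1 and Id2. Ikzf2 was found in all 11 P2+ CMPs with Id2 and in 32 of the 42 cells.

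**Figure D1:**
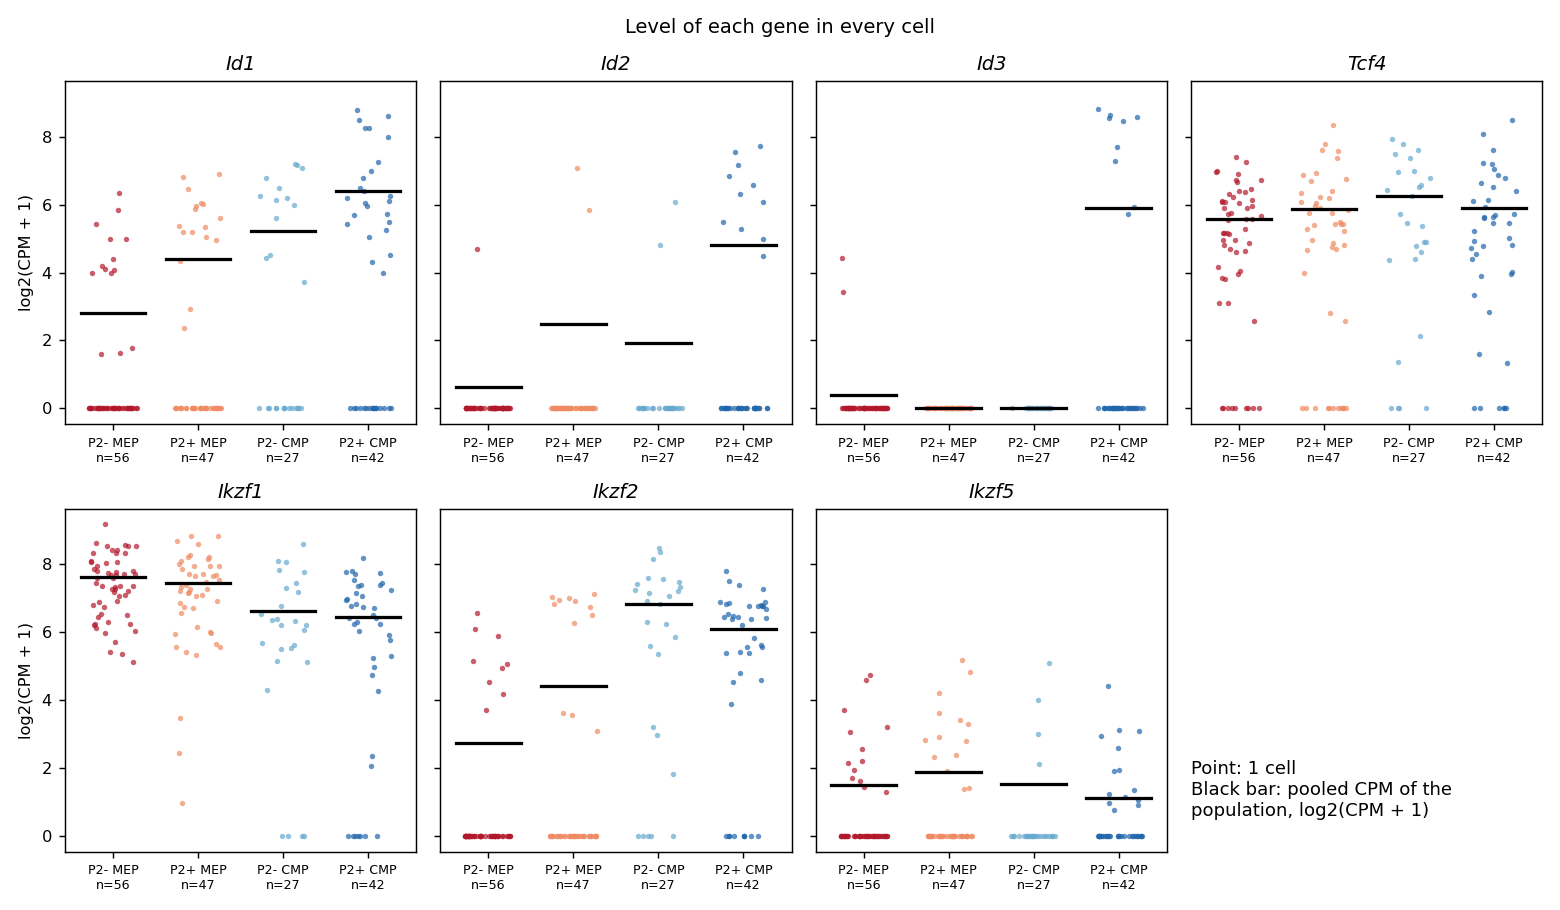
Level of each gene in every cell, as log2(CPM + 1), by population, with a black bar for the pooled CPM of the population. Id3 cells of P2+ CMPs sit between 51.6 and 446 CPM while all P2+ MEPs and P2- CMPs sit at 0, and Ikzf2 has its highest pooled level, 113 CPM, in P2- CMPs and its lowest, 5.62 CPM, in P2- MEPs.

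Taking Id1, Id2 and Id3 as a family, the number of cells with a read of any of them was 13 of 56, 17 of 47, 12 of 27 and 30 of 42. Cells with all 3 were found among P2+ CMPs, where there were 5, and in 0 cells of the other 3 populations. The summed level of the 3 genes was 6.86, 24.6, 39.3 and 169 CPM, and the highest P2+ CMP reached 987 CPM. Id4, the other ID gene, had 13 reads in 1 P2- MEP and 0 elsewhere.

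Macrophages and endothelial cells are other cells of the fetal liver that can express ID genes. The cKit+ and CD150+ gates bear on both, while CD31, an antigen of endothelial cells, was not among the gates named for this sort. Macrophage markers were at or near 0, while part of the endothelial list was present in CMPs. Of 7 macrophage markers, 5 had 0 reads in P2+ CMPs (C1qa, C1qb, C1qc, Adgre1 and Cd5l), and the summed level of the list was 0.0980, 0.0950, 0.0545 and 0.385 CPM. The summed level of 7 endothelial markers was 0.131, 6.999, 97.8 and 131 CPM, carried by Emcn (0, 0, 25.6 and 63.7 CPM) and Tie1 (0.0327, 5.51, 70.4 and 63.3 CPM). Other markers of the list were absent or sparse. Lyve1 had 0 reads in both CMP populations, Cldn5 had 5 in P2+ and 0 in P2- CMPs, and Stab2 had 49 and 0. The endothelial cadherin Cdh5 stood at 0.743 CPM and the VEGF receptor Kdr at 1.79 CPM in P2+ CMPs, each in 1 of 42 cells. These were 2 different cells, both of them among the 9 with Id3. Tie1 was found in 7 of the 9 and in 27 of the other 33 P2+ CMPs, and Emcn in 6 of the 9 and in 16 of the 33. Without the 2 P2+ CMPs with Cdh5 or Kdr reads the level was 39.3 CPM for Id3 (7 of 40 cells), 61.8 CPM for Id1 (23 of 40 cells) and 18.3 CPM for Id2 (9 of 40 cells). When the cells with Cdh5 or Kdr reads were left out of every population, 0 of the P2- MEPs and 2 of each other population, the log2 ratio of Id1 for P2+ over P2- CMPs was 0.79 and no longer 2-fold, that of Id2 was 2.59 and that of Id3 at least 7.81. The part of these cells in the results was not tested.

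**Figure D2:**
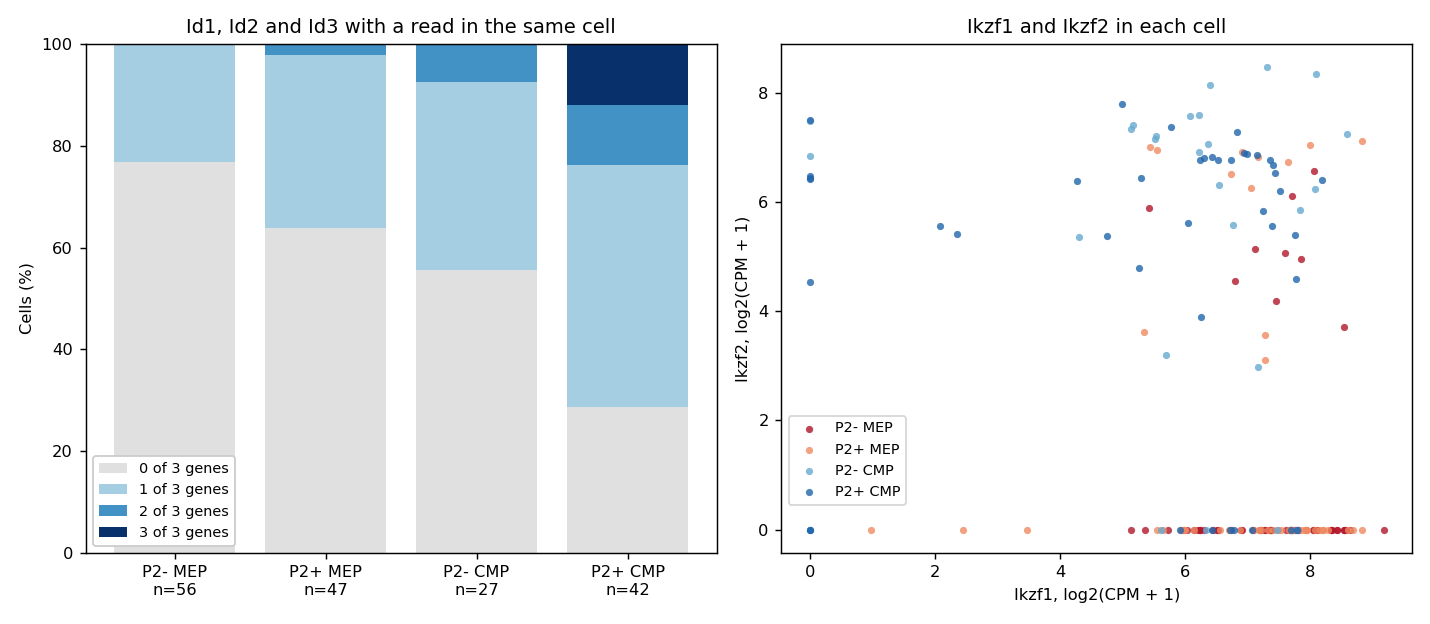
Left, percent of cells of each population with a read of 0, 1, 2 or 3 of Id1, Id2 and Id3 at 100000 reads per cell; right, Ikzf1 against Ikzf2 in each cell, both as log2(CPM + 1). Cells with all 3 ID genes (5 of 42) appear in the P2+ CMP bar only, and most MEPs lie along the bottom of the right panel, at 0 for Ikzf2.

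Tcf4, the E protein of the 7 genes, is best known for its role in plasmacytoid dendritic cells. It was found in most cells of every population and did not differ by 2-fold in any comparison. Its level was 46.95 CPM (44.6 to 49.4) in P2- MEPs, 57.4 CPM (54.8 to 60.1) in P2+ MEPs, 76.0 CPM (72.0 to 80.1) in P2- CMPs and 59.0 CPM (56.5 to 61.5) in P2+ CMPs. The intervals of P2+ MEPs and P2+ CMPs overlapped, and P2- CMPs were the highest. On the log2 scale the ratio was 0.29 (0.19 to 0.39) for P2+ over P2- MEPs, -0.37 (-0.46 to -0.27) for P2+ over P2- CMPs, 0.69 (0.59 to 0.80) for P2- CMPs over P2- MEPs and 0.04 (-0.05 to 0.13) for P2+ CMPs over P2+ MEPs. Single cells varied more than the populations, from 0 to 168, 321.7, 243.9 and 360 CPM, with medians of 36.7, 42.1, 42.6 and 39.6 CPM. A read was found in 42 of 56, 33 of 47, 22 of 27 and 31 of 42 cells.

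The other E proteins were also present throughout. Tcf3, which encodes E12 and E47, stood at 244.9, 217.3, 160 and 151 CPM, and Tcf12, which encodes HEB, at 62.6, 45.3, 71.7 and 55.8 CPM. Of the 3 E protein genes, 0 were 2-fold higher or lower in any of the 4 comparisons, in which 59.2% to 67.9% of all genes tested were within 2-fold. Among their tissue partners, Tal1, needed for red cell and megakaryocyte formation, was at 145, 155, 74.6 and 48.6 CPM and was lower by 1.68 on the log2 scale in P2+ CMPs than in P2+ MEPs. The related Lyl1 stayed between 184 and 266.2 CPM, and Tal2 had 0 reads. Within P2+ CMPs, 19 cells had reads of both Id1 and Tcf4 (25 had Id1 and 31 had Tcf4), with a rho of -0.12. In P2- CMPs the rho between Id1 and Tcf4 was -0.43 over 27 cells, and in both MEP populations it was within 0.03 of 0. Such values in sparse counts are a description only.

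Ikzf1 was found in more of the 172 cells (91.3%) than the other 6 genes, and its level was lower in CMPs than in MEPs. Its level was 195 CPM (190 to 200) in P2- MEPs, 172 CPM (168 to 177) in P2+ MEPs, 98.6 CPM (94.1 to 103) in P2- CMPs and 85.5 CPM (82.5 to 88.6) in P2+ CMPs. The log2 ratio was -0.18 (-0.23 to -0.13) for P2+ over P2- MEPs and -0.21 (-0.29 to -0.12) for P2+ over P2- CMPs. It was -0.99 (-1.06 to -0.91) for P2- CMPs over P2- MEPs and -1.01 (-1.07 to -0.95) for P2+ CMPs over P2+ MEPs, just inside and just outside 2-fold. The difference between MEPs and CMPs was therefore about the same at both reporter levels, whatever side of the threshold it fell.

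At equal depth an Ikzf1 read was found in all 56 P2- MEPs (interval from 93.6%) and in 46 of 47 P2+ MEPs, but in 22 of 27 P2- CMPs (81.5%, 61.9 to 93.7) and 33 of 42 P2+ CMPs (78.6%, 63.2 to 89.7). Every P2- MEP had at least 33.97 CPM, and the highest had 578 CPM. The median cell was at 170, 154, 73.8 and 84.8 CPM. The summed level of 8 erythroid markers was also lower in CMPs than in MEPs, at 1667, 788, 712 and 401 CPM. Its largest drop lay between P2- and P2+ MEPs, where Ikzf1 went only from 195 to 172 CPM. Of the 8, 6 were lower in CMPs than in MEPs at both reporter levels, against 15.1% of all genes tested for P2- and 16.5% for P2+ cells, while the beta globin gene Hbb-bt went the other way, at 9.51, 9.79, 232.2 and 121 CPM, and Car2 was within 2-fold. The part of these genes in the Ikzf1 difference was not tested.

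Ikzf2 went the other way between MEPs and CMPs, with the higher level in CMPs. Its level was 5.62 CPM (4.81 to 6.53) in P2- MEPs, 20.2 CPM (18.7 to 21.9) in P2+ MEPs, 113 CPM (108 to 118) in P2- CMPs and 67.1 CPM (64.5 to 69.8) in P2+ CMPs. P2- CMPs were the highest and P2- MEPs the lowest, and no neighbouring intervals overlapped. Ikzf2 was higher by 4.33 (4.11 to 4.56) on the log2 scale in P2- CMPs than in P2- MEPs, a 20.1-fold difference, and by 1.73 (1.60 to 1.86) in P2+ CMPs than in P2+ MEPs. The reporter comparison went in opposite directions, with 1.85 (1.60 to 2.10) for P2+ over P2- MEPs and -0.75 (-0.84 to -0.67) for P2+ over P2- CMPs.

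Among MEPs, 8 of 56 P2- cells (14.3%, 6.38 to 26.2) and 11 of 47 P2+ cells (23.4%, 12.3 to 38.03) had a read of Ikzf2. Among CMPs, 21 of 27 P2- cells (77.8%, 57.7 to 91.4) and 32 of 42 P2+ cells (76.2%, 60.5 to 87.9) had one. The share was thus larger in the CMP pools than in the MEP pools. It was nearly equal in P2- and P2+ CMPs, whose difference lay in the level per cell. Among cells with a read the median was 32.5 CPM in P2- MEPs, 109 CPM in P2+ MEPs, 137 CPM in P2- CMPs and 86.0 CPM in P2+ CMPs. The median over all cells was 0 in both MEP populations, 114 CPM in P2- CMPs and 77.8 CPM in P2+ CMPs. Markers of granulocytes and monocytes, 8 genes led by Mpo and Prtn3, stood at a summed 9.44, 47.2, 308.9 and 548 CPM, which unlike Ikzf2 was higher in P2+ than in P2- CMPs. A list of 6 mast cell and basophil markers had the same order as Ikzf2, at a summed 0.327, 2.69, 72.8 and 34.2 CPM, nearly all of it from the mast cell protease Cpa3, which was found in 1, 2, 9 and 7 cells. Fcer1a, Ms4a2, Cma1 and Prss34 of that list had 0 reads in all 4 populations. The part of either list in the Ikzf2 levels was not tested.

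**Figure D3:**
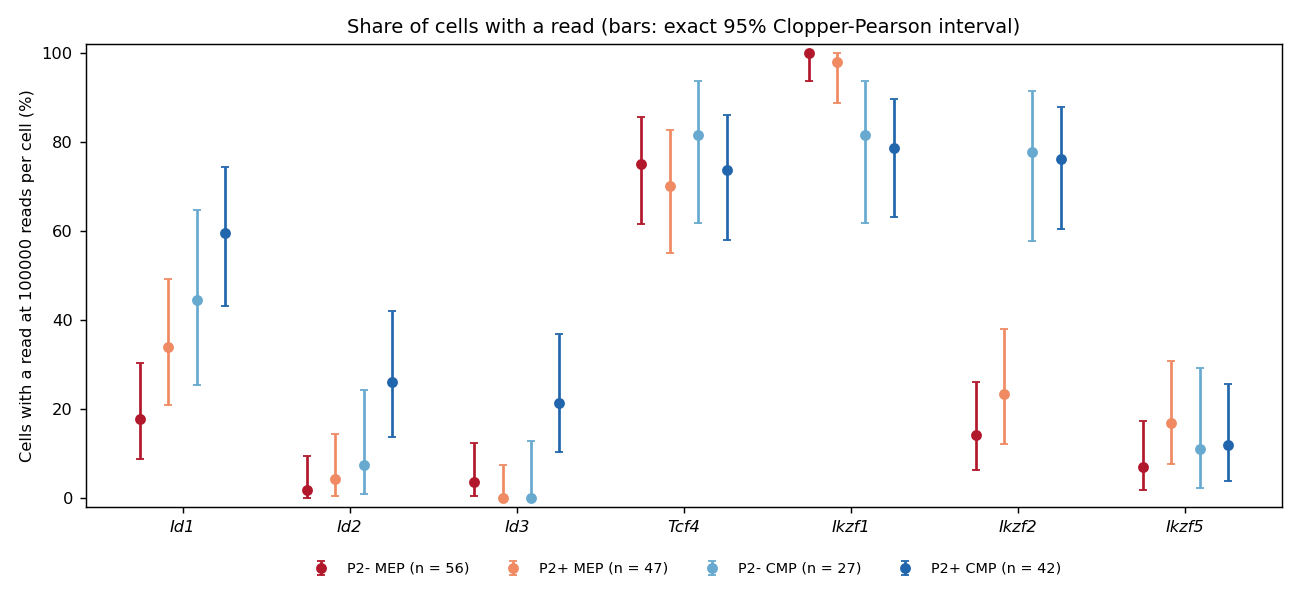
Percent of cells with a read of each gene after thinning to 100000 reads per cell, by population, with exact 95% Clopper-Pearson intervals. Ikzf2 is found in 77.8% of P2- CMPs and 76.2% of P2+ CMPs but in 14.3% and 23.4% of the MEPs, while Ikzf1 is found in 78.6% or more of every population.

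At equal depth Ikzf1 and Ikzf2 were found together in 8 of 56, 11 of 47, 17 of 27 and 25 of 42 cells. Cells with Ikzf2 and no Ikzf1 read at this depth were seen in CMPs, 4 of 27 P2- and 7 of 42 P2+, and 0 were seen in MEPs. Levels of different genes were compared per kilobase of exon, with the exons of all annotated transcripts merged (11.6 kilobases for Ikzf2 and 5.78 for Ikzf1). This lowers a gene whose cells use shorter transcripts, and which transcripts were used was not tested. On this scale, without thinning, Ikzf2 exceeded Ikzf1 in 0 of 56 P2- and 2 of 47 P2+ cells among MEPs. Among CMPs it did so in 12 of 27 P2- cells (44.4%, 25.5 to 64.7) and 11 of 42 P2+ cells (26.2%, 13.9 to 42.04). Spearman's rho between the 2 genes was 0.01, 0.03, 0.04 and 0.01 within the populations and -0.23 over all 172 cells. The negative value over all cells was thus not seen inside any population.

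Ikzf5 was at the limit of detection, with 56, 85, 35 and 43 reads, or 1.83, 2.69, 1.91 and 1.18 CPM. Neighbouring intervals overlapped throughout. Its ratio for P2+ CMPs over P2+ MEPs was -1.19 (-1.75 to -0.64), and the other 3 were within 2-fold. Without the cell of highest CPM in each population the ratio went from 0.06 to -1.26 for P2- CMPs over P2- MEPs and from -0.69 to 0.69 for P2+ over P2- CMPs. In P2- CMPs 71.4% of its reads came from 1 cell. At equal depth a read was found in 4 of 56, 8 of 47, 3 of 27 and 5 of 42 cells, and without thinning in 13, 14, 4 and 14 cells. Of the other Ikaros genes, Ikzf3 (Aiolos, known from lymphocytes) had 0 reads in all 4 populations. Ikzf4 (Eos) had 48, 0, 32 and 151 reads, in 1, 0, 1 and 5 cells. It was at least 5.45 higher on the log2 scale in P2+ CMPs than in P2+ MEPs (interval from 5.13). The summed CPM of Ikzf1, Ikzf2 and Ikzf5 was 203, 195, 213.7 and 154. It adds genes of unlike exon length, so it cannot show whether the total of the family was steady.

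Levels of different genes were set side by side per kilobase of exon, leaving Ikzf5 out. In P2- MEPs the order was Ikzf1 (33.8 CPM per kilobase), Id1 (5.15), Tcf4 (1.71), Ikzf2 (0.484), Id2 (0.228) and Id3 (0.182). In P2+ CMPs it was Id1 (72.0), Id3 (32.4), Ikzf1 (14.8), Id2 (11.1), Ikzf2 (5.78) and Tcf4 (2.15). Ikzf1 thus led in P2- MEPs and Id1 in P2+ CMPs. Ikzf1 also led in P2+ MEPs (29.8, beside 17.2 for Id1) and Id1 in P2- CMPs (31.4, beside 17.1 for Ikzf1). Tcf4 has 62 annotated transcripts with 27.4 kilobases of exon in all, more than any single transcript holds, which lowers its value on this scale.

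In each comparison the members were read against all genes with at least 10 summed reads. For P2+ over P2- MEPs, 3 of the 7 were higher (Id1, Id2 and Ikzf2), where 20.4% of 15769 genes were, and 1 was lower (Id3, a bound on 10 reads), where 12.5% were. For P2+ over P2- CMPs, 3 were higher (Id1, Id2 and Id3) and 0 lower, against 17.4% and 14.7% of 16107 genes, and without the cells with Cdh5 or Kdr reads 2 were higher (Id2 and Id3). For P2- CMPs over P2- MEPs, 3 were higher (Id1, Id2 and Ikzf2) and 0 lower, against 25.8% and 15.1% of 15631 genes. For P2+ CMPs over P2+ MEPs, 4 were higher (Id1, Id2, Id3 and Ikzf2) and 2 lower (Ikzf1 and Ikzf5), against 23.2% and 16.5% of 16572 genes. The median log2 ratio of the 7 genes was 0.56, -0.21, 0.69 and 1.73 in this order, beside 0.06, -0.0020, 0.09 and 0.02 over all genes tested. The comparisons share populations, and are not independent of each other.

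**Figure D4:**
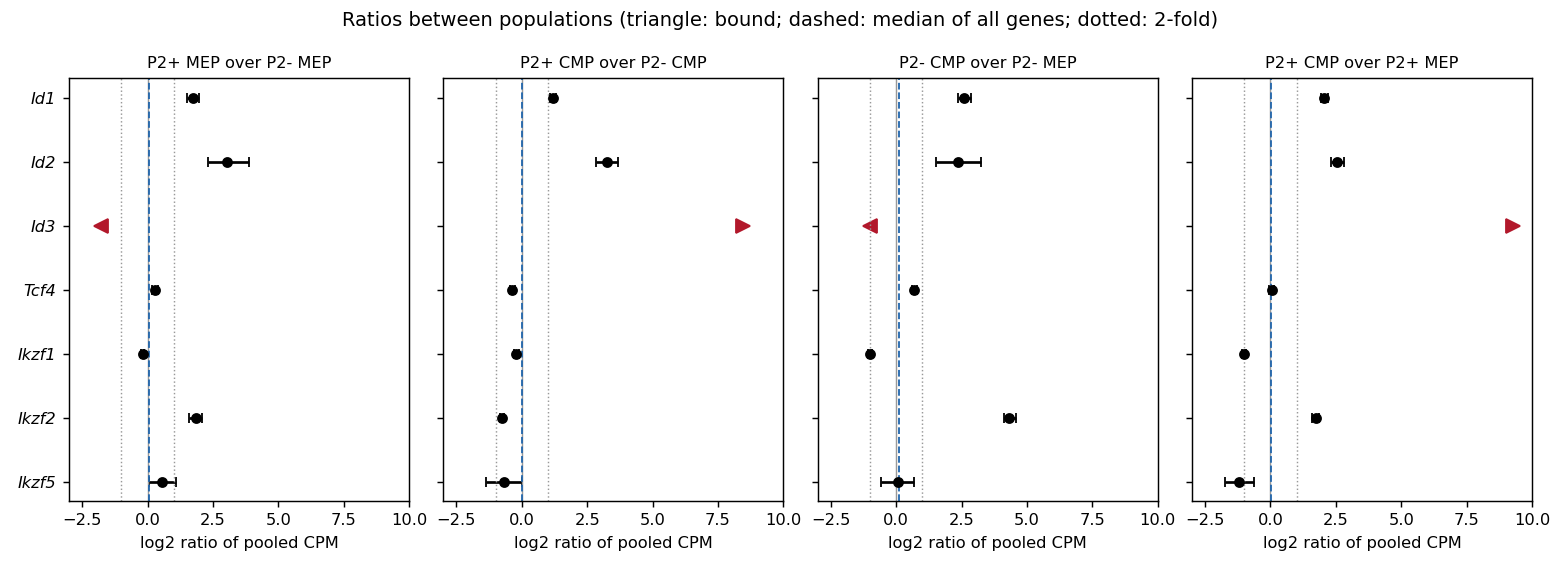
Log2 ratio of pooled CPM of the 7 genes in the 4 comparisons, with exact 95% intervals for counting error, triangles for bounds, a dashed line for the median of all genes tested and dotted lines at 2-fold. Id1 and Id2 lie to the right of the 2-fold line in all 4 panels, Ikzf2 lies on opposite sides of 0 in the first and second panel, and Tcf4 stays within 2-fold.

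Of 13 genes of the NuRD complex, the corepressor that Ikaros recruits, 12, 13, 11 and 10 were within 2-fold in the 4 comparisons, in the same order, as were 67%, 67.9%, 59.2% and 60.3% of all genes tested. The median log2 ratio of the 13 genes was -0.10, -0.0048, -0.03 and -0.26, beside 0.06, -0.0020, 0.09 and 0.02 over all genes tested. The exceptions were the helicase Chd3, with 0, 2.19, 15.7 and 21.2 CPM, the methyl-CpG binder Mbd2, with 96.0, 84.8, 47.8 and 25.9 CPM, and Mta3, with 63.5, 71.7, 51.2 and 33.9 CPM. Chd4, the helicase that binds Ikaros in lymphocytes, lay between 229.1 and 291.6 CPM, and Hdac1 and Hdac2 between 98.2 and 210 CPM. On the log2 scale Mbd2 was lower by 1.01 in P2- CMPs than in P2- MEPs and by 1.71 in P2+ CMPs than in P2+ MEPs, and Mta3 was lower by 1.08 in the last. Of 4 other corepressors known to bind Ikaros (Ctbp1, Ctbp2, Sin3a and Sin3b), 0 were past 2-fold in any comparison, beside the same 59.2% to 67.9% of all genes tested that were within 2-fold.

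The BMP and SMAD genes upstream of the ID genes were sparse. Of 17 listed, 9 had at least 10 summed reads in every comparison. A further gene passed in each, Bmpr1a in the comparisons with P2- MEPs and Acvrl1, with 35 reads in 1 P2+ CMP and 0 elsewhere, in those with P2+ CMPs. Of the 10 that passed, 3, 3, 7 and 3 were higher and 1, 1, 1 and 0 lower in the 4 comparisons. Over all genes tested 20.4%, 17.4%, 25.8% and 23.2% were higher and 12.5%, 14.7%, 15.1% and 16.5% lower, so that 3 of 10 was near the share of all genes. Their median log2 ratio was 0.62, -0.07, 1.67 and 0.77, beside 0.06, -0.0020, 0.09 and 0.02 over all genes tested. The ligands Bmp2, Bmp4, Bmp6 and Bmp7 had 3 reads or fewer in each population, and the receptor Bmpr1a had 11 or fewer. The type II receptor Bmpr2 was at 5.91, 14.7, 21.7 and 23.1 CPM, Smad1 at 1.44, 8.55, 18.5 and 15.1 CPM, and Smad5 at 14.05, 17.9, 47.9 and 40.9 CPM. Smad6, an inhibitor that BMP signals are known to induce, was at 0.621, 0.633, 3.33 and 11.3 CPM, higher by 1.76 on the log2 scale in P2+ than in P2- CMPs and by 4.15 in P2+ CMPs than in P2+ MEPs. Smad7, the other inhibitory SMAD, was at 1.18, 1.96, 3.49 and 2.04 CPM, with log2 ratios of -0.78 and 0.05 in these comparisons. Between P2+ and P2- CMPs the log2 ratio was -0.30 for Smad1 and -0.23 for Smad5, and the part of the SMAD genes in the ID levels was not tested. Smad6 was found in 5 of the 9 P2+ CMPs with Id3 and in 4 of the other 33, Smad1 in 5 and 8, Smad5 in 7 and 22, and Bmpr2 in 3 and 15.

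**Figure D5:**
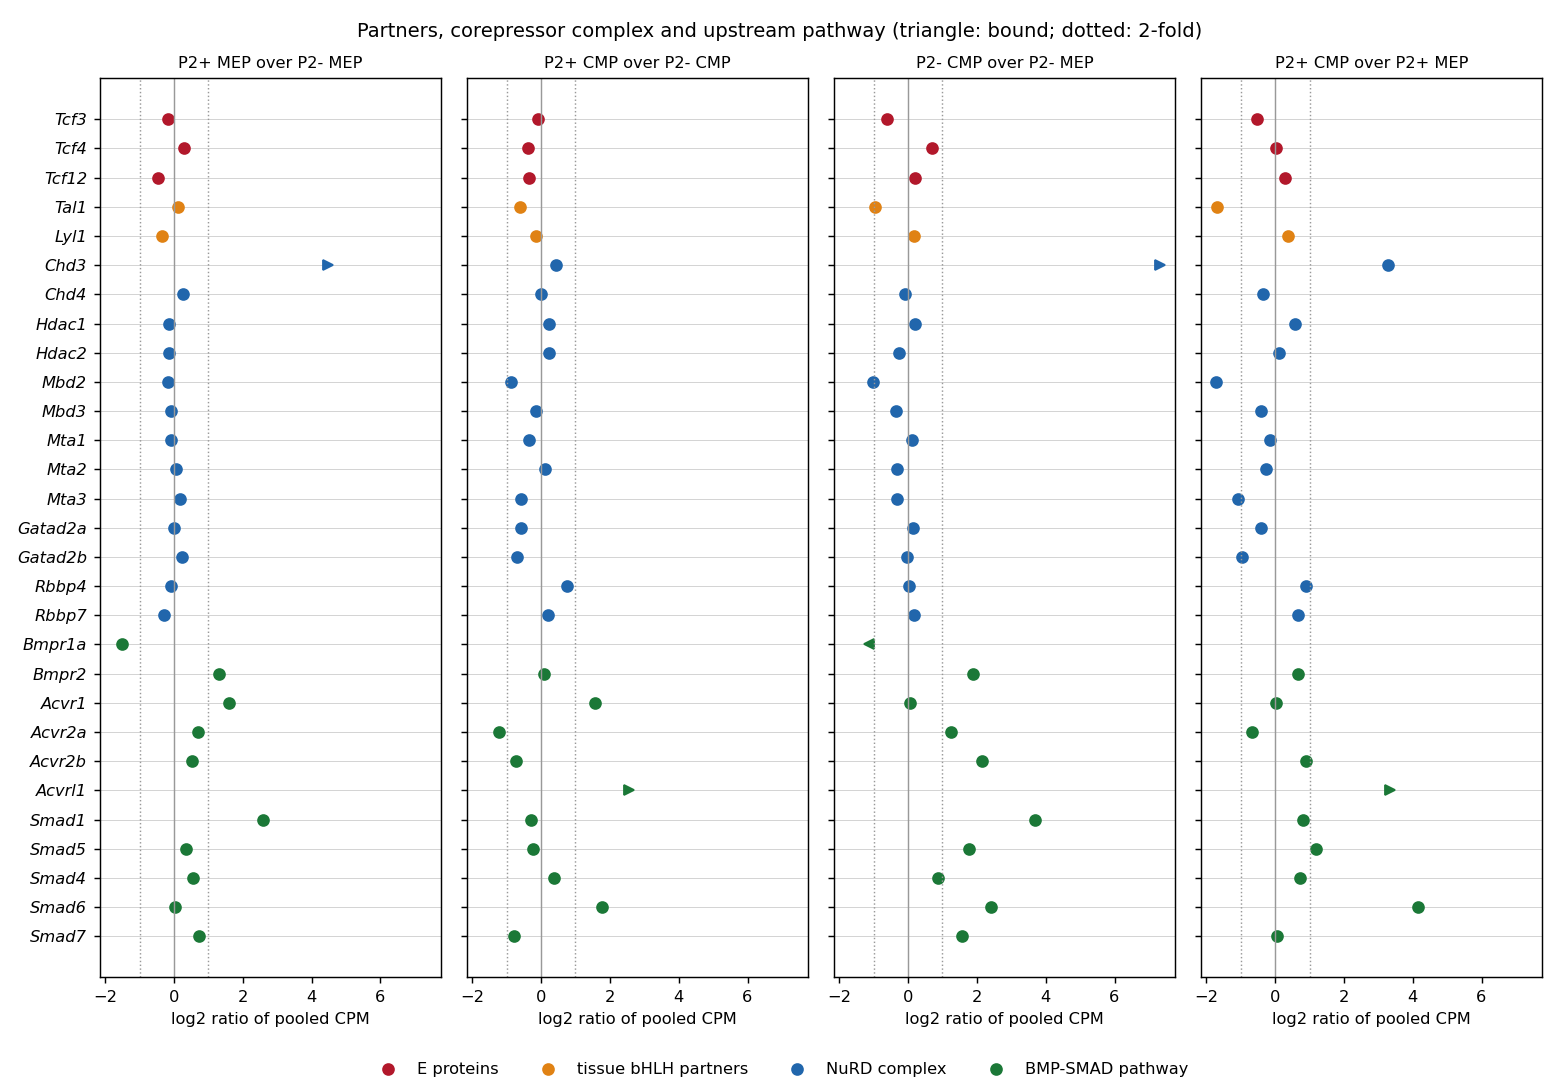
Log2 ratio of pooled CPM in the 4 comparisons for E proteins, their tissue partners, NuRD genes and BMP-SMAD genes with at least 10 summed reads in the pair, with triangles for bounds and dotted lines at 2-fold. The E proteins stay within 2-fold in all 4 panels, and 7 of the BMP-SMAD genes lie above 2-fold for P2- CMPs over P2- MEPs.

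The genes most like a member across cells were taken from 8039 genes that reached a share of 25% of the 172 cells with a read, which Id2, Id3 and Ikzf5 did not reach. For Ikzf2 they were Coro1a, Limd2 and Mpo (rho 0.59 for each), and the least like was Blvrb (-0.57), the biliverdin reductase of red cells. Ikzf1 was most like Tnfaip2 (0.44), Ermap (0.41), an erythroid membrane protein, and Mt1 (0.41), and least like Fxyd5 (-0.43). For Id1 the nearest were Lyz2 (0.40), Marcksl1 (0.39) and Rn18s-rs5 (0.37), and the farthest was the erythroid factor Klf1 (-0.34). Rn18s-rs5 held 5.6%, 7.2%, 8.8% and 10.6% of the reads of the populations, rising in the same order as Id1. Tcf4 had no gene above 0.31, which Trappc8 reached, with Zkscan1 and Rnf31 at 0.30. These values are descriptions over cells of 4 pools, and correlations within the pools were not computed for these genes.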

How the data were processed

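Per the labels, single E14.5 fetal liver cells were sorted by flow cytometry from the pooled livers of 2 litters. The authors used Trimmomatic 0.36 to trim paired reads, STAR 2.4.2a to align them to GRCm38 plus ERCC, and HTSeq 0.6.1p1 to count them on GENCODE M12 exons, without regard to strand. They deposited raw counts per gene and cell, and a table that gives unmapped reads as a percent of all reads. Tool names and versions follow the submitters' processing notes and the methods of the study. Reads ambiguous between genes made up 25.6% of the uniquely mapped reads and were counted for no gene, which lowers genes that overlap others. Populations were taken from the sample labels, which name the CMPs low and high, read here as P2- and P2+. No label gives a plate, so plates could not be compared.

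From the deposited counts, 172 of 175 cells with at least 250000 reads, at most 25% unmapped reads and at most 15% ERCC reads were kept. Tally rows and 92 ERCC features were left out of totals. CPM of a population is the sum of its reads of a gene over its total on mouse genes (18334696 to 36351033). A population with 0 reads was set to 3 reads and its ratio called a bound. Shares of cells were computed after thinning each cell to 100000 reads. The ratio code was checked on simulated counts. Without molecular identifiers PCR copies are counted as reads, so the intervals of levels and ratios cover counting error only. Those of shares cover the drawing of cells from 1 pool. Named were the 7 members, genes of the listed families and pathways that were past 2-fold or complete a family, sort anchors, and the 3 genes of highest Spearman's rho with a member. Positions and exon lengths are from GENCODE M21, a later release than that used for counting. The members and lists were chosen with earlier results of these data known. Python 3.11.15, scipy 1.17.1, R 4.3.3, DESeq2 1.42.0 (size factors) and edgeR 4.0.16 (TMM factors) were used. Alternatives were equal weight for every cell, both scalings, every deposited cell, removal of the cell of highest CPM, of the P2- CMP labelled MEP or of mitochondrial genes and Rn18s-rs5, depths of 50000 or 200000 reads or full depth, and a minimum of 5 or 100 reads. Removal of the cells with Xist and Y reads and of the cells with Cdh5 or Kdr reads was added after the data were seen.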

Additional observations from a re-analysis of the deposited data

Results flagged for a closer look

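For 4 genes the difference between P2+ and P2- cells had opposite signs in MEPs and CMPs, with counting intervals that left out 0 on both sides. With 1 pool per population this difference between compartments was not tested. Ikzf2 had a log2 ratio of 1.85 in MEPs and -0.75 in CMPs. The values of Tcf4 were smaller, 0.29 in MEPs and -0.37 in CMPs. Id3 was at most -1.78 in MEPs (interval up to -1.21), against 10 reads in 2 P2- MEPs, and at least 8.47 in CMPs (interval from 8.17). Ikzf5 had 0.56 in MEPs and -0.69 in CMPs, on 35 to 85 reads per population, and its value in CMPs became 0.69 without the cell of highest CPM in each population.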

How the results depend on the processing

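No paired analysis was possible because each population is 1 pool and the replicate numbers of its cells only count them in accession order, with no tie to a litter or plate. The number of members 2-fold or more higher changed under 1 of the 9 alternatives: for P2+ over P2- CMPs it went from 3 to 2 without the cells with Cdh5 or Kdr reads, as Id1 went from 1.20 to 0.79. The number lower went from 1 to 0 for P2+ over P2- MEPs without the cell of highest CPM. For P2- CMPs over P2- MEPs it went from 0 to 1 with equal weight for every cell and without the cells with Xist and Y reads, and to 2 with DESeq2 size factors, with TMM factors and without the cell of highest CPM. For P2+ CMPs over P2+ MEPs it went from 2 to 1 with equal weight, with TMM factors, without mitochondrial genes and Rn18s-rs5, and without the cells with Cdh5 or Kdr reads. Where the call of Ikzf1 changed, its ratio lay between -0.89 and -1.14. The bound of Id3, which rests on 10 reads in 2 P2- MEPs, went from -1.78 to -0.47 for P2+ over P2- MEPs without the cell of highest CPM and from -0.998 to -1.71 for P2- CMPs over P2- MEPs with equal weight, and Ikzf5 went from 0.06 to -1.26 in the latter comparison without the cell of highest CPM.

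Of the recomputed ratios, 28 left their counting interval, 14 changed their side of 2-fold and 6 changed sign. Without the cell of highest CPM the sign changed for Ikzf5 in P2+ over P2- CMPs, for Ikzf5 and Id3 in P2- CMPs over P2- MEPs and for Tcf4 in P2+ CMPs over P2+ MEPs. It also changed for Ikzf5 in P2- CMPs over P2- MEPs with TMM factors and for Tcf4 in P2+ CMPs over P2+ MEPs with DESeq2 size factors. The 6 ratios were within 2-fold before the change, and all but the -1.26 of Ikzf5 after it. The largest shift of the median of all genes under another scaling was -0.10 on the log2 scale, with TMM factors for P2- CMPs over P2- MEPs. With at least 100 summed reads fewer genes were past 2-fold: 5.54% lower for P2+ over P2- MEPs, 10.1% higher and 9.17% lower for P2+ over P2- CMPs, 8.62% lower for P2- CMPs over P2- MEPs and 10.2% lower for P2+ CMPs over P2+ MEPs. Of the 28 shares of cells, 2, 0 and 3 left their interval with 50000 reads, 200000 reads and no thinning.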

Other observations

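Cereblon, the substrate receptor of the ubiquitin ligase that thalidomide analogues turn on Ikaros in human cells, was low, with Crbn at 15.6, 19.2, 15.1 and 10.8 CPM for P2- and P2+ MEPs and then P2- and P2+ CMPs. Its log2 ratio farthest from 0 was -0.84 for P2+ CMPs over P2+ MEPs. Crbn and the ligase subunits Ddb1, Cul4a and Rbx1 were within 2-fold in all 4 comparisons, as were 59.2% to 67.9% of all genes tested in each. Cul4b was the exception, at 26.1, 23.9, 61.7 and 33.04 CPM, and higher by 1.24 on the log2 scale in P2- CMPs than in P2- MEPs.

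Among the P2+ CMPs, Cd34 was found in 9 of the 9 cells with Id3 and in 31 of the other 33, Runx1 in 9 and 32, and the myeloid and lymphoid factor Spi1 in 9 and 30. Nearly all cells had reads of these 3 genes, so that detection could not tell the 9 cells from the others, and levels were not compared. Flt3, a receptor of multipotent and lymphoid progenitors, was found in 5 of the 9 and in 9 of the 33. Klf1 was found in 0 of the 9 and in 2 of the 33. These counts describe cells of 1 pool, chosen after their values were seen, and were not tested.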
